A study of Mus musculus with 8 samples.

Results

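The transcripts of the m6A writer complex were examined for their own m6A peaks. The 9 members are Mettl3, Mettl14, Mettl16, Wtap, Virma, Zc3h13, Rbm15, Rbm15b and Cbll1, and their peaks are the entries that carry 1 of these gene names in the peak lists of 4 m6A immunoprecipitation (IP) libraries. Virma appears in the lists under its older symbol 1110037F02Rik. The lists held 70 such peaks of 38705 in all, and 8 of the 9 genes were represented, among 9779 genes with a peak. Peaks that shared at least 1 base were joined across libraries into regions, which gave 27 member regions of 21168.

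MeRIP-seq, in which fragmented polyA RNA is pulled down with an antibody to N6-methyladenosine and sequenced beside its input, was done in mouse embryonic fibroblasts (MEFs). The cells were wild-type C57BL/6 MEFs, isolated at embryonic day 13.5 and used at 5 to 6 passages. Control cells grew in serum-supplemented high glucose DMEM, and starved cells were kept in a nutrient-deprived medium for 2 h. Each group had 2 IP and 2 input libraries among the 8 samples, and the comparison asks how m6A on these transcripts differed after nutrient starvation. MEFs are a mixed primary culture. The lists give no read counts, so the depth of the libraries is unknown and the number of peaks stands in its place, 8974 to 10103 per library. Peaks were found on 6 of 8 fibroblast markers (none on Col1a1 and Vim), while of 7 markers of epithelium, endothelium and blood Krt8 and Cd68 had 1 peak each and the other 5 had none. A peak needs both a transcript and m6A, so these counts do not measure expression.

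METTL3 and METTL14 form the catalytic core that methylates adenosine within the RRACH consensus of mRNA, and METTL3 is the subunit that binds the methyl donor. WTAP anchors the core to VIRMA, ZC3H13, CBLL1 (HAKAI) and the RNA-binding proteins RBM15 and RBM15B, which together place the mark on target transcripts. METTL16 acts apart from this complex and methylates U6 small nuclear RNA and hairpins in the mRNA of the enzyme that makes the methyl donor. In mRNA of mammalian cells m6A is known to lie mostly in long internal exons and near stop codons.

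The sequences printed here are coding sequence from the middle of the stretch that the peaks of a region had in common. They are shown because they hold the strongest member peak, 3 regions whose control and starved libraries stood apart, and the stretch richest in motif. GGAC, the core of the m6A consensus, was searched on the transcribed strand of the spliced transcript and is in capitals. GGACT contains GGAC, and both were counted. Sequences were read 5′ to 3′ from the RefSeq GRCm38.p6 genome, the same assembly as mm10, and exon numbers are those of the longest coding transcript of each gene in GENCODE M21.
Zc3h13 exon 15, chr14:75331813-75332112, plus strand: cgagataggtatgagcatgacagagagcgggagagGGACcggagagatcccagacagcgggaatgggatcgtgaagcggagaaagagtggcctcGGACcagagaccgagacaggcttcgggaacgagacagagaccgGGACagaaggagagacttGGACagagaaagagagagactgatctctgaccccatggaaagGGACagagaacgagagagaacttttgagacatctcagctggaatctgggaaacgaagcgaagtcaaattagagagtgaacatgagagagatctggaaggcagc
Zc3h13 exon 12, chr14:75327667-75327966, plus strand: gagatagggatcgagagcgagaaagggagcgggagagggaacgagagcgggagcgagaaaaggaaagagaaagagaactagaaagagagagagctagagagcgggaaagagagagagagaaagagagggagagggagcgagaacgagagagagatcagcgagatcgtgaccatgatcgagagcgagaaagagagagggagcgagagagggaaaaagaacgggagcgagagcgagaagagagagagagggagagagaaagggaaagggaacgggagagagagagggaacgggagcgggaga
Virma exon 8, chr4:11513575-11513745, plus strand: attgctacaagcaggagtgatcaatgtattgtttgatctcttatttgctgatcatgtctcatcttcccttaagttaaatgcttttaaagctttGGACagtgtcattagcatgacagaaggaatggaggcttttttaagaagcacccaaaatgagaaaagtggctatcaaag
Virma exon 14, chr4:11526595-11526825, plus strand: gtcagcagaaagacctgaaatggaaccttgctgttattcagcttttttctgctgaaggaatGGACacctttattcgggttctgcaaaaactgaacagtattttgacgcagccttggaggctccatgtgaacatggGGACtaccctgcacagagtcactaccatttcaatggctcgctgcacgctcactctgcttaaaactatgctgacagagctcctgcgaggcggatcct
Rbm15 exon 1, chr3:107331142-107331441, minus strand: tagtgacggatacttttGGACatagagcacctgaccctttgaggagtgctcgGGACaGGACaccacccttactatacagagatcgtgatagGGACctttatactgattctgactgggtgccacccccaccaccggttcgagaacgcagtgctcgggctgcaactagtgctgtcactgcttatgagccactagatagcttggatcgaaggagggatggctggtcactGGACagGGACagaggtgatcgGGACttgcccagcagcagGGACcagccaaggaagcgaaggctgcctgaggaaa
The Zc3h13 exon 15 window covered codons 1367 to 1466 of 1730 and held 5 GGAC, and the whole exon held 8, or 15.6 per kb. The Zc3h13 exon 12 window, codons 740 to 840, was a run of purine-rich codons without GGAC, and 82.0% of the bases of that exon were A or G. The whole of exon 12 held 3 GGAC, or 4.99 per kb, against 5.05 per kb over the Zc3h13 transcript. The Virma exon 8 window had 1 GGAC and the exon 14 window 2, of which 1 was a GGACT. The Rbm15 window, codons 547 to 647 of 962, held 8 GGAC in 300 bases. Over all 4 lists, 63.6% of placed peaks had a GGAC in the 200 bases around their centre and 26.5% a GGACT.

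Peaks were unevenly spread over the members. Zc3h13 had 24 of the 70 peaks and ranked 19 of 9779 genes by number of peaks, and Virma had 15 and ranked 134. Wtap had 9, Rbm15 and Rbm15b 7 each, Mettl14 4, Mettl16 3 and Cbll1 1, against a median of 3 over all genes with a peak. Wtap, Virma, Zc3h13, Rbm15 and Rbm15b had a peak in all 4 libraries, as did 29.2% of all genes with a peak.

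**Figure D1:**
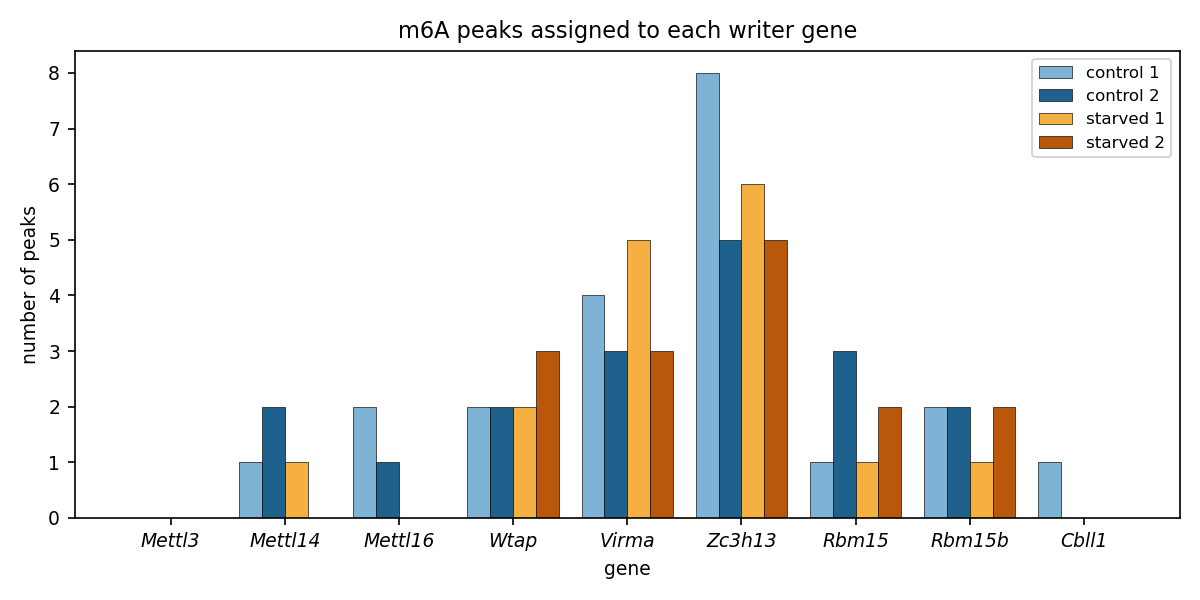
Number of m6A peaks (y axis) assigned to each writer gene (x axis), with 1 bar per IP library. Zc3h13 has 5 to 8 peaks in every library, Mettl3 has none, and Mettl16 and Cbll1 have bars in control libraries alone.

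No peak was assigned to Mettl3, the catalytic subunit, in any library. Its longest coding transcript is 2025 nt long and has 14 GGAC, or 6.91 per kb, the highest density of the 9 members. None of its 11 exons is longer than 405 nt, and 5 of them reach 200 nt, the length of the shortest peak in the lists. In 2 libraries a peak at the 3′ end of Mettl3 was assigned to Tox4, a gene on the opposite strand that overlaps it there. In control replicate 2 this was chr14:52295717-52296058, with a fold enrichment of 24.51 and a score of 2215.82, which lies in the last intron of the longest transcript and on an exon of other annotated Mettl3 isoforms. In starved replicate 1 it was chr14:52294821-52295177, with 3.67 and 76.38, over the last exon. The lists carry no strand, so these 2 peaks cannot be given to either gene.

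Here and below, the fold enrichment is the authors' ratio of IP signal to input at the peak, and the score is minus 10 times the log10 of the peak's p-value, with 8003 of the 38705 peaks at exactly 3100 and 296 above it. The authors' false discovery rate ran from 7.52% to 76.02% over the member peaks, so the lists hold weak as well as strong calls.

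Mettl14, whose protein binds RNA and activates METTL3, had 1 peak that recurred. It lay in the 3′ UTR, near the end of the last exon, and spanned chr3:123368528-123368862 over the 3 libraries that had it. Its fold enrichment was 8.46 in control replicate 1, 6.16 in control replicate 2 and 4.34 in starved replicate 1, with scores of 364.18, 129.58 and 86.61. Starved replicate 2 had no Mettl14 peak at all. None of these 3 peaks contained a GGAC. A second and stronger peak, chr3:123374635-123374835 with a fold enrichment of 43.42 and a score of 1130.02, was found in control replicate 2 alone. Its centre lay 3 nt from the stop codon of a shorter coding isoform of 7 exons, whose 6590-nt last exon runs on into what is an intron of the longest transcript.

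Mettl16, the separate methyltransferase, had peaks in control libraries only. Control replicate 1 had a peak that filled the 200-nt coding exon 3, chr11:74784058-74784257, at a fold enrichment of 80.74 and a score of 3100, rank 639 of 10103 in that library. The same library had chr11:74817159-74817456 in the last coding exon, at 10.83 and a score of 895.65. Control replicate 2 had neither of these and instead had chr11:74822012-74822376, at 18.40 and a score of 450.9. That peak lay 4438 nt past the stop codon, in the 11367-nt last exon of a longer isoform. The 3 regions were therefore each seen in 1 library, and the 2 control libraries shared none of them. The 80.74-fold peak is the strongest member peak that did not recur.

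Cbll1, the HAKAI ubiquitin ligase subunit, had 1 peak, chr12:31487264-31487527, in control replicate 1 alone. Its fold enrichment was 10.91 and its score 753.6, and its centre lay at -114 nt from the stop codon (negative is upstream) in the 3379-nt last exon.

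Wtap, the anchor of the complex, had 2 regions, each with a peak in all 4 libraries, on the alternative last exons of its isoforms. The first, chr17:12966948-12968051, lay on the 1256-nt last exon of the long isoform, across the 3′ part of the coding sequence and the stop codon. Fold enrichment there was 3.74 and 20.18 in the control and 26.97 and 4.57 in the starved replicates 1 and 2, with scores of 77, 1730.31, 3100 and 170.95. Each group thus had 1 strong and 1 weak library, and the replicates differed 5.40-fold in control and 5.90-fold in starved cells. The peak extents differed as well, since control replicate 2 reached from chr17:12966948-12967825, into the 3′ UTR, and starved replicate 1 from chr17:12967453-12968051, up to the 5′ edge of the exon. The 2 weaker peaks, chr17:12967606-12967982 in control replicate 1 and chr17:12967606-12968006 in starved replicate 2, lay between them.

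The second Wtap region, chr17:12974240-12975474, began in the 179-nt coding exon 6 and ran into the sequence behind it, which is intron in the long isoform and 3′ UTR in the 2790-nt last exon of the short isoform. The strongest peak of a library had a fold enrichment of 10.03 and 3.20 in the control and 7.53 and 13.52 in the starved replicates 1 and 2. The corresponding scores in that order read 2358.2, 67.35, 1093.29 and 2429.76. Control replicate 1 (chr17:12974240-12975474) and starved replicate 1 (chr17:12974379-12975474) had 1 long peak each that ended at the 5′ edge of exon 6. Control replicate 2 had only the distal part, chr17:12974240-12974813. Starved replicate 2 had the exon 6 end as chr17:12975154-12975474, the 13.52-fold peak, and a separate distal peak, chr17:12974587-12974862, at 3.52 and a score of 316.92. The values of the 2 groups overlapped in both Wtap regions. In the second region the 3.20 of control replicate 2 came from the distal part and the 13.52 of starved replicate 2 from the exon 6 end. These 2 peaks share no base and were joined through the long peaks of the other libraries. The values of that region therefore compare different places.

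Virma, the largest scaffold subunit, had 7 regions, of which 2 had a peak in all 4 libraries. Exon 7 was filled from edge to edge by the peak of every library. Fold enrichment was 48.06 and 19.81 in control and 16.15 and 17.49 in starved replicates 1 and 2, with scores of 3100, 796.64, 1262.9 and 865.62. Both starved values were below both control values, with a log2 difference, starved minus control, of -0.88 between group means and an SD of 0.90 in control and 0.08 in starved libraries (n = 2 each). The exact permutation test gave p = 0.333, the smallest that 2 against 2 libraries allow. Without control replicate 1 the log2 difference was -0.24, so most of its size rests on that library. Relative to the median of all peaks of each library, the log2 difference over the 4 libraries was -1.13.

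Exon 8 of Virma, 1141 nt long and the longest internal exon of the gene, had the narrowest range over the 4 libraries among the 10 member regions present in all of them. Fold enrichment was 10.07 and 9.65 in control and 14.79 and 12.67 in starved replicates 1 and 2, with scores of 1199.47, 642.64, 3100 and 1612.43. Both starved values were above both control values, by a log2 difference of 0.47 (SD 0.04 in control and 0.16 in starved libraries, p = 0.333 in the exact permutation test). The median of all peaks was itself higher by 0.26 (log2) in starved libraries, and relative to that median of each library the difference was 0.22, with the groups still apart. Peak extents shifted within the exon. Control peaks started at its 5′ edge (chr4:11513028-11513745 and chr4:11513028-11514119), starved replicate 1 filled the exon (chr4:11513028-11514168), and starved replicate 2 had only the 3′ part (chr4:11513575-11514168).

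Exon 14 of Virma was the 1 member region with a peak in both starved and no control library. The peak was chr4:11526595-11526825 at a fold enrichment of 16.21 and a score of 1616.66 in starved replicate 1, and chr4:11526595-11527146 at 57.30 and a score of 3100 in starved replicate 2. Both began at the 5′ edge of the 545-nt exon, and the second ran over its whole length. The control lists give no value for this exon, so no difference between groups was computed. Among all 21168 regions, 3.2% had a peak in both starved and no control library and 4.15% the reverse, against 1 and 0 of the 27 member regions. The 0 became 1 when peaks with a score under 100 were left out, and also when the lists were cut to equal length.

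The other 4 Virma regions recurred less. Exon 10 had a peak in replicate 1 of each group, chr4:11518946-11519414 at 8.75 (score 738.29) in control and chr4:11518926-11519414 at 10.58 (score 1212.45) in starved cells. Exon 17, chr4:11530828-11531045, had a peak in control replicate 1 alone, at 11.33 with a score of 423.08. Exon 23, chr4:11545969-11546300, had one in starved replicate 1 alone, at 5.38 with a score of 239.55. The 3′ UTR had chr4:11549626-11549972, with its centre 102 nt past the stop codon, in control replicate 2 alone, at 8.50 with a score of 393.87.

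Zc3h13, the zinc finger subunit that bridges WTAP and RBM15, carried the strongest and the most peaks of the family. Exon 15, chr14:75331706-75332218, was filled from edge to edge in every library at a score of 3100. Fold enrichment was 783.75 and 434.76 in control and 723.77 and 358.14 in starved replicates 1 and 2. By fold enrichment this was peak 10 of 10103 and 33 of 9871 in the control lists, and 12 of 9757 and 54 of 8974 in the starved lists. Replicate 1 was the higher library in both groups and the groups overlapped, with a log2 difference of -0.20 (SD 0.60 in control and 0.72 in starved libraries, n = 2 each, p = 0.667 in the exact permutation test).

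Exon 12 of Zc3h13 showed the largest group difference of the 10 member regions present in all libraries. Its fold enrichment was 42.36 and 30.14 in control and 98.86 and 125.97 in starved replicates 1 and 2. The scores were 2049.37 and 643.05 in control and 3100 in both starved libraries. Both starved values were above both control values, by a log2 difference of 1.64 (SD 0.35 in control and 0.25 in starved libraries), with p = 0.333 in the exact permutation test. The difference stayed between 1.40 and 1.89 when any 1 library was left out, and was 1.39 relative to each library's median over all peaks. The peak covered nearly the same stretch in each library, chr14:75327544-75328033 and chr14:75327564-75328070 in control and chr14:75327604-75328029 and chr14:75327544-75328054 in starved cells. This is the purine-rich exon printed above, and the 200 bases around each peak's centre held no GGAC, while each whole peak held 1 or 2.

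Of the other Zc3h13 regions, exon 10 and the 3′ end of the last exon had a peak in all libraries. Exon 10, within chr14:75323224-75323874, had 32.41 and 26.19 in control and 77.62 and 19.84 in starved replicates 1 and 2, with scores of 3100, 885.95, 3100 and 896.48. Control replicate 1 covered the first 425 nt of that exon and the other 3 libraries all 651 nt. At the 3′ end, chr14:75344184-75344426, the values came to 15.20 and 21.52 in control and 47.01 and 4.55 in starved replicates 1 and 2, with scores of 914.92, 654.66, 3100 and 61.35. In both regions the starved replicates lay on either side of the control values, 3.91-fold apart in exon 10 and 10.3-fold apart at the 3′ end. The peaks at the 3′ end all stopped at the last base of the transcript.

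Exons 9 and 14 of Zc3h13 each lacked a peak in 1 library. Exon 9 had 33.99 (chr14:75321617-75321904, score 3100) in control replicate 1, none in control replicate 2, and 15.23 (chr14:75321597-75321904, score 1090.9) and 8.84 (chr14:75321648-75321904, score 314.37) in starved replicates 1 and 2. The 5′ part of the 1191-nt exon 14 had 22.44 (chr14:75330069-75330668, score 1854.54) and 16.93 (chr14:75330069-75330545, score 881.85) in control and 35.08 (chr14:75330069-75330678, score 3100) in starved replicate 1, and none in starved replicate 2. Control replicate 1 alone had a peak at the 3′ end of exon 14, chr14:75331037-75331259 at 11.21 (score 427.01), and 1 that filled exon 17, chr14:75337370-75337570 at 12.30 (score 197.13).

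Rbm15 and Rbm15b, the RNA-binding subunits, had broad peaks over their long coding exons. In Rbm15 the region chr3:107330118-107332449 lay over exon 1, which is 3459 nt long and holds almost all of the coding sequence, and 2 starved peaks ran past its 3′ border into the intron. Its strongest peak per library had 17.02 (chr3:107330640-107332288, score 1509.33) and 13.87 (chr3:107330334-107332118, score 2549.49) in control and 34.44 (chr3:107330118-107331943, score 3100) and 8.74 (chr3:107331889-107332449, score 291.49) in starved replicates 1 and 2. Starved replicate 2 had a second peak there, chr3:107330118-107331562 at 4.98 (score 116.57). The starved replicates lay above and below both control values, 3.94-fold apart. Control replicate 2 alone had a weak peak between the 2 exons, chr3:107328836-107329035 at 2.67 (score 120.65), and 1 across the start of the coding sequence with its centre in the 5′ UTR, chr3:107333022-107333289 at 7.93 (score 94.24).

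Rbm15b, a single-exon gene of 6511 nt, had 1 region, chr9:106883985-106886606, which ran from the coding sequence past the stop codon. Control replicate 1 had 7.90 (chr9:106883985-106884351, score 530.81) and 6.30 (chr9:106884668-106886217, score 453.49), and control replicate 2 had 18.65 (chr9:106884171-106886082, score 1464.65) and 4.09 (chr9:106886164-106886606, score 103.27). Starved replicate 1 had a single peak at 6.93 (chr9:106884171-106885698, score 958.86). Starved replicate 2 had 31.79 (chr9:106883985-106885097, score 3100) and 20.22 (chr9:106885364-106886261, score 3100). The strongest values per library overlapped between groups, and the starved replicates were 4.59-fold apart. The last 3386 nt of the transcript are 3′ UTR, and no peak lay beyond its first part.

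**Figure D2:**
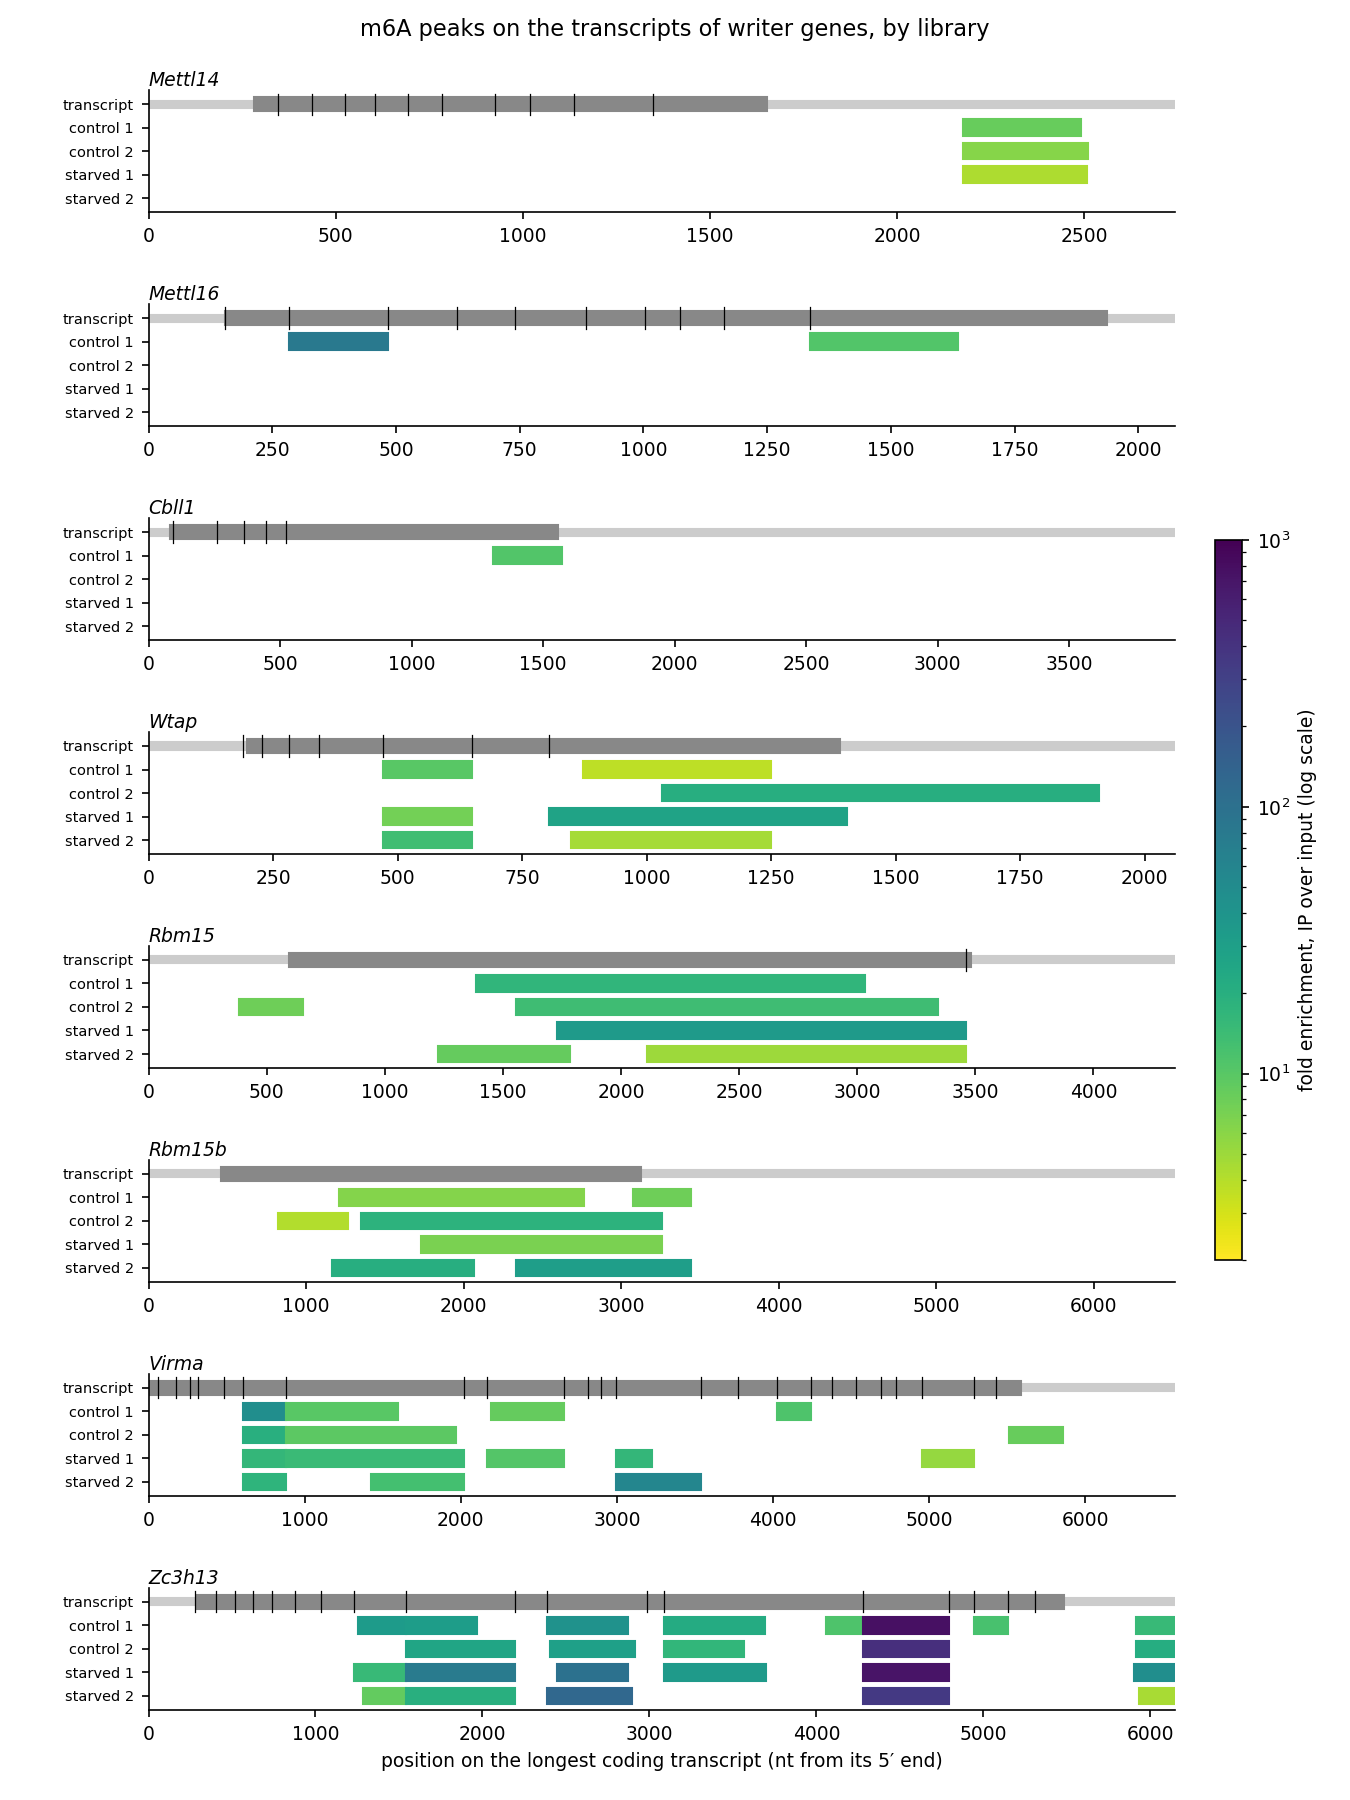
Peaks on the longest coding transcript of each writer gene (x axis, nt from the 5′ end), with 1 row per IP library and colour for the fold enrichment over input on a log scale. The top bar of each panel is the transcript, thick for coding sequence, with exon borders as vertical lines. The figure draws the 65 of 70 peaks that cover at least 100 nt of that transcript. Peaks of Zc3h13 and Virma follow exon borders, and Zc3h13 exon 15 is the darkest block in every library.

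Of the 10 member regions present in every library, 7 had a higher and 3 a lower mean log2 fold enrichment in starved cells. The 7 include the second Wtap region, whose values came from peaks at different places. The groups did not overlap in 2 regions with higher values (Zc3h13 exon 12 and Virma exon 8) and 1 with lower values (Virma exon 7). Among all 2257 regions with a peak in every library, 22.9% had both starved values above both control values and 18% had both below. The median log2 difference over the 10 regions was 0.32, against 0.10 over the 2257. The per-library log2 medians over the 10 regions came to 4.01 and 4.32 in control and 4.93 and 3.94 in starved replicates 1 and 2 (p = 1 in the two-sided exact permutation test), and without starved replicate 1 the median difference turned to -0.63. Replicates of starved cells were a median of 2.97-fold apart in the member regions and replicates of control cells 1.61-fold, against 1.80-fold and 1.63-fold over all regions.

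**Figure D3:**
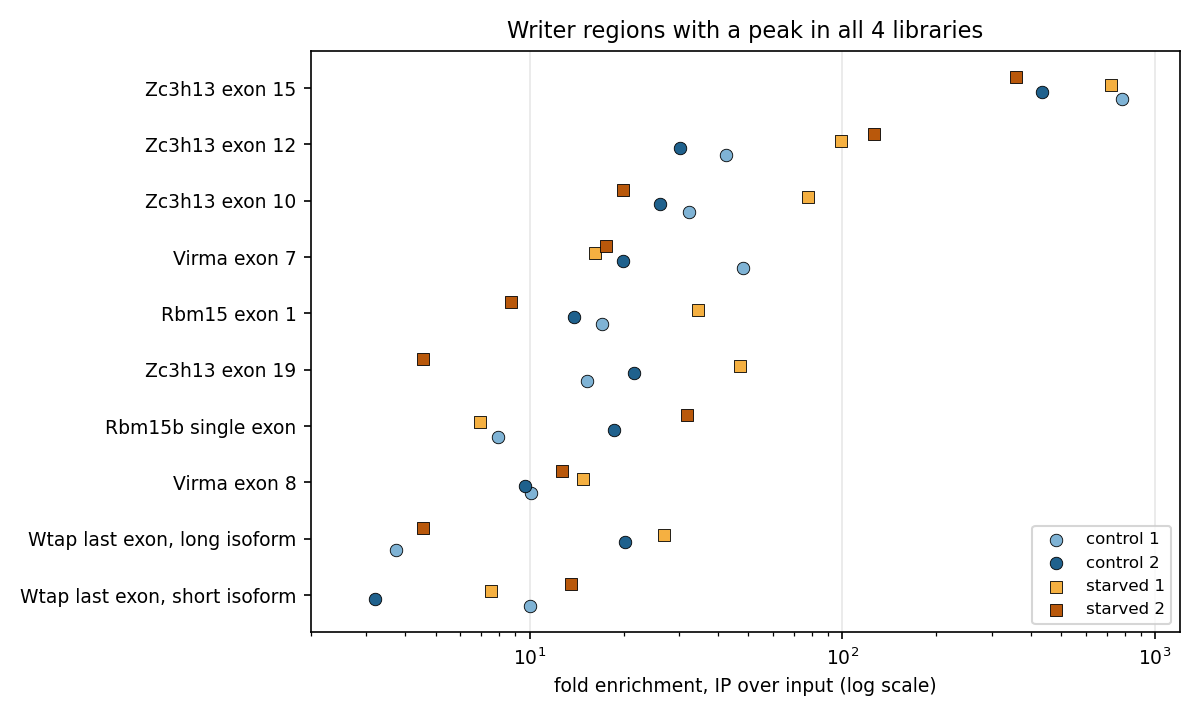
Fold enrichment of IP over input (x axis, log scale) in the 10 writer regions with a peak in all 4 libraries (y axis), with circles for control and squares for starved libraries. Circles and squares separate in Zc3h13 exon 12 and Virma exons 7 and 8 and are mixed in the other 7 regions, and the Zc3h13 exon 15 values lie between 358.14 and 783.75.

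The number of member peaks was 21 and 18 in control and 16 and 15 in starved replicates 1 and 2, a mean of 19.5 ± 2.12 against 15.5 ± 0.707 (SD, n = 2 each). The groups did not overlap, and the two-sided exact permutation test gave p = 0.333, its smallest value. The lists as a whole moved the same way, with 10103 and 9871 against 9757 and 8974 peaks. Per 1000 peaks of a library the members had 2.08 and 1.82 in control and 1.64 and 1.67 in starved cells. Member genes with a peak numbered 8 and 7 in control and 6 and 5 in starved replicates 1 and 2, beside 6387 and 6171 against 6159 and 5839 over all genes. Mettl16 had peaks in control cells alone, Cbll1 in control replicate 1 alone, and Mettl14 none in starved replicate 2. Since no expression values were used here, a missing peak cannot be told apart from a low transcript level.

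The difference in number lay in regions seen once. Of 12 member regions with a peak in a single library, 6 were in control replicate 1, 5 in control replicate 2, 1 in starved replicate 1 and 0 in starved replicate 2. Over all genes 11895 regions were seen in a single library, 6236 of them in control and 5659 in starved libraries. The 12 regions had a median fold enrichment of 11.06, from 2.67 to 80.74, against a median of 19.23 over the values of the 10 regions present everywhere. Member regions were present in all libraries in 37.0% of cases, against 10.7% of all regions. Some of this presence rested on weak calls. The number of member regions present in all libraries fell from 10 to 7 with a minimum score of 100. With a minimum fold enrichment of 4 it fell to 8.

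The median fold enrichment of member peaks did not separate the groups. It was 11.33 and 17.7 in control and 16.18 and 13.52 in starved replicates 1 and 2, with a difference in log2 medians of 0.06 (p = 1 in the exact permutation test). Taking all peaks, control libraries had medians of 12.21 and 12.27 and starved libraries 14.58 and 14.69, for which the same exact test gave p = 0.333. Peaks with a score of at least 3100 made up 23.8% and 5.56% of member peaks in control and 50.0% and 33.3% in starved cells, and at least 13.2% and 27.8% of all peaks in every control and every starved list.

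Member peaks lay mostly in coding sequence. Of 69 peaks whose centre could be placed on a coding transcript, 52 (75.4%) were in coding sequence, 14 (20.3%) in the 3′ UTR, 2 (2.90%) within 100 nt of a stop codon and 1 in a 5′ UTR. Over all peaks the shares were 45.9% in coding sequence, 36.7% in the 3′ UTR and 12.6% near the stop codon. The coding share was 81.0% and 52.9% in control and 81.2% and 86.7% in starved replicates 1 and 2, each above the 44.6% to 47.0% over all peaks of the libraries. Both peaks near a stop codon came from control replicate 2, 1 in Wtap and 1 in Mettl14, which gave that library 11.8% and the other 3 libraries 0 (p = 1 in the exact permutation test). With a window of 200 nt the shares were 9.52% and 17.6% in control libraries and 0 in both starved libraries (p = 0.333 in the same exact test). Without Zc3h13 the coding share was 71.1%, and without Zc3h13 and Virma 18 of 30 placed peaks were coding.

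A GGAC lay within the 200 bases around the centre of 51 of the 69 placed member peaks (73.9%), and a GGACT in 14 (20.3%). Per library the GGAC share was 71.4% and 76.5% in control and 75.0% and 73.3% in starved replicates 1 and 2 (p = 1 in the exact permutation test), against 62.0% to 64.6% of all peaks. Pooled over libraries the GGACT share was thus below that of all peaks and the GGAC share above it. Per library the GGACT share was 28.6% and 11.8% in control and 18.8% and 20.0% in starved replicates 1 and 2. Over all peaks it was 26.0% to 27.2%, so control replicate 1 lay above that range and the other libraries below it. The Mettl14 3′ UTR peaks held no GGAC over their whole length, and the Zc3h13 exon 12 peaks held none at the centre but 1 or 2 elsewhere. A missing match says only that these letters were not in that window.

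**Figure D4:**
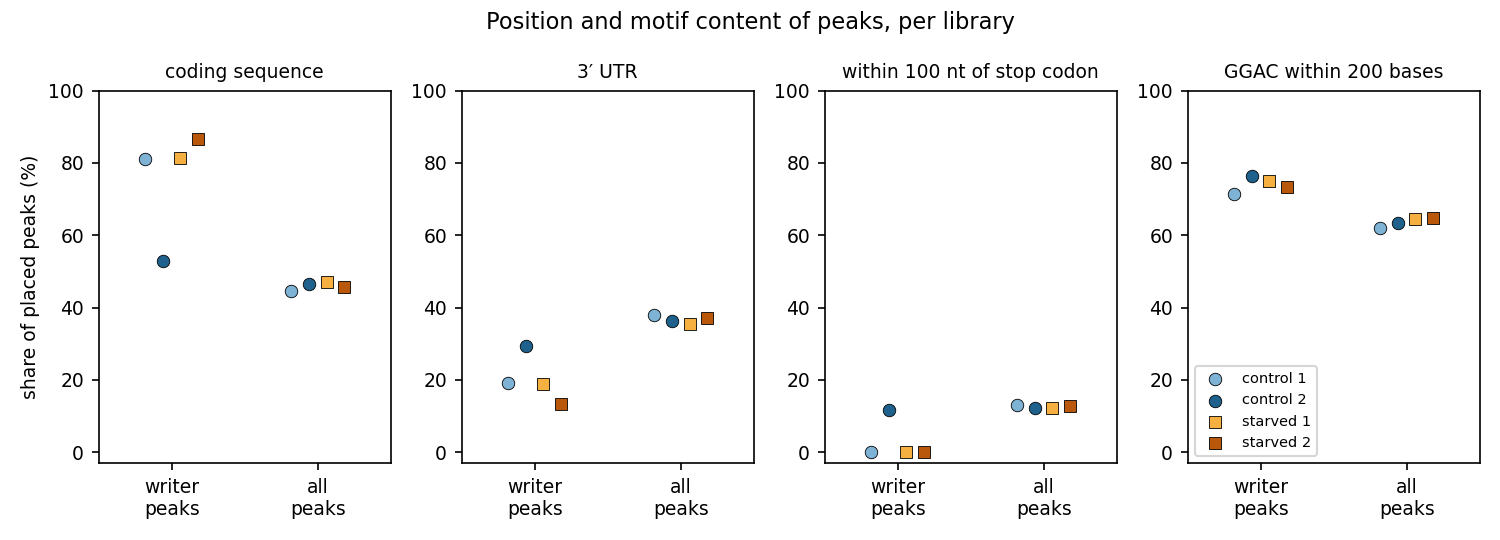
Share of placed peaks in percent (y axis) that lie in coding sequence, in the 3′ UTR or within 100 nt of the stop codon, or that hold GGAC in the 200 bases at the centre, for writer peaks and for all peaks of each IP library. In coding sequence the writer peaks of every library lie above all peaks, and near the stop codon 3 of 4 libraries are at 0.

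Peaks of the members lay on their long exons. Of 32 exons of at least 200 nt in the 9 longest coding transcripts, 21 were covered by a peak over at least 100 nt in some library, whereas of 62 shorter exons 1 was (exon 6 of Wtap, which the short isoform extends). The stop codon peak of Mettl14 in control replicate 2 covered less than 100 nt of the 142-nt exon 7 and was not counted there. The shortest peak in any list is 200 nt, so a shorter exon could hold a peak only together with flanking sequence. Exons under 100 nt could not meet the 100-nt rule, so part of the contrast between long and short exons was fixed beforehand. The same counts were not made over the exons of all genes. The exon counts given here therefore describe the members and do not set them apart from other genes. In Zc3h13, 7 of 8 exons of at least 200 nt had a peak and in Virma 7 of 9, whereas in Mettl3 0 of 5 had. Zc3h13 and Virma peaks lay in internal exons in 87.2% of cases and touched an annotated exon border in 92.3%, against 32.6% and 48.2% of all peaks. For the peaks of the other members these shares were 6.67% and 19.4%, below those of all peaks. A peak equal to a whole exon was seen for 18 of 70 member peaks, against 12.3% of all peaks. Of these, 17 were in Zc3h13 and Virma, and the other members had 1 of 31 (3.23%).

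**Figure D5:**
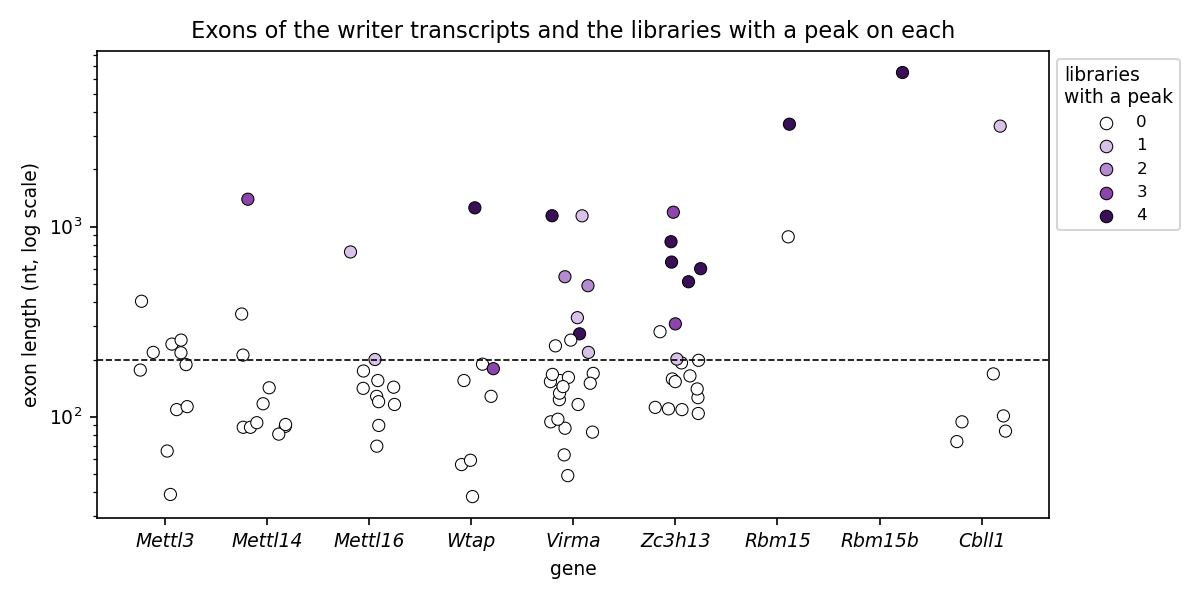
Length of each exon (y axis, nt, log scale) in the longest coding transcript of the writer genes (x axis), with darker points for more IP libraries with a peak over at least 100 nt of the exon and white for none. The dashed line marks 200 nt, the shortest peak length, and under it the only filled point is exon 6 of Wtap. Exons under 100 nt could not be filled under this rule.

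The other proteins that act on m6A gave a mixed picture on their own transcripts. Both erasers, Fto and Alkbh5, had peaks in all 4 libraries, as did 9 of 15 readers and 1 of 5 other methyltransferases and partners, while Ythdc2, Igf2bp3 and Mettl5 had none. Of the regions with a peak in every library, starved values were all higher in 1 and all lower in 1 of 3 eraser regions, in 1 and 3 of 12 reader regions, and higher in the single region of the third list. Over all 2257 such regions 22.9% were higher and 18% lower, and a difference of these small counts from those shares was not tested. The Fto region chr8:91485159-91485439 near a stop codon had 178.24 and 234.08 in control and 24.81 and 18.37 in starved replicates 1 and 2. In Ythdc1, the nuclear reader, the stop codon region chr5:86835684-86836288 had 451.29 and 411.38 in control and 142.47 and 144.31 in starved cells, and a coding region, chr5:86816907-86817333, had 73.59 and 78.52 against 59.76 and 31.10. Hnrnpc was also lower, with 15.57 and 18.10 against 8.50 and 4.81.

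Higher values in starved cells were found in coding sequence of Alkbh5 (22.98 and 6.42 in control, 36.17 and 34.53 in starved replicates 1 and 2) and of the cytoplasmic reader Ythdf3 (51.93 and 36.57 against 82.48 and 68.87). Trmt112, a methyltransferase partner, had 9.05 and 11.97 against 22.18 and 15.04 near its stop codon. A peak in both control and no starved library was found in 2 of 10 eraser regions, both in Fto, and in 4 of 41 reader regions, in Igf2bp1, Ythdf1, Ythdf2 and Hnrnpa2b1, against 4.15% of all regions. The reverse was found in 1 reader region, in Prrc2a, against 3.2% of all regions. Each of these separations has p = 0.333 at best in an exact permutation test of 2 against 2 libraries.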

How the data were processed

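Groups were read from the GEO titles, where treatment, replicate number and kind of library are given. The study calls the replicates biological and says that culture experiments were repeated on separate days, without tying a library to a day or culture, so p-values measure only the spread between these libraries. Per the labels and the study's methods, mRNA was purified, m6A fragments were pulled down (the labels name a Synaptic Systems antibody, the methods a GenSeq kit), and directional libraries were sequenced. The authors used Cutadapt for trimming, HISAT2 2.0.4 for alignment to mm10 and MACS2 for peaks of each IP over its input, although the columns of the lists are named as in MACS releases before MACS2, so the release behind the fold enrichment, score and rate is uncertain.

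In the deposited peak lists the fold enrichment is a ratio of IP to input computed by the authors, and the score is minus 10 times log10 of the p-value, from 50.01 upwards. The authors also give a false discovery rate in percent for each deposited peak. Starts in the lists count from 0 and were raised by 1. The authors' table of differential sites holds fold changes, p-values and adjusted p-values of their own comparison and was not used. 0 columns were left unmapped. The input libraries were not analysed here other than through the authors' fold enrichment. The depth is unknown, so no counting error or limit of detection is given, and the absence of a peak is not the absence of m6A.

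Peaks sharing at least 1 base were joined into regions, and the strongest peak of a library stood for it. A peak's centre was placed on the longest coding GENCODE M21 transcript of its gene that holds it. Because 2 libraries a group give only 3 distinct splits, the two-sided exact permutation test cannot go below p = 0.333. One value per library was tested, since peaks of one gene and library are not replicates. Fold enrichment was compared on the log2 scale computed from the deposited ratio. Every member was named with every peak, and sequences of 5 regions are printed, the others not being reported here. The members and the other gene lists were chosen with earlier results of these data known. Code for joining, ordering and placing peaks was tested on simulated data. Python 3.11.15, pandas 2.3.3, numpy 2.4.6 and pysam 0.24.0 were used.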

Additional observations from a re-analysis of the deposited data

How the results depend on the processing

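With 2 libraries per group no test could pass a threshold of 0.05, so only directions were compared. Leaving out each library in turn, the starved minus control difference ran from -5.5 to -2.5 in member peaks, from -2.5 to -1.5 in member genes with a peak, from -0.25 to 0.38 in median log2 fold enrichment, from -0.63 to 0.72 in the median log2 difference over shared regions, from -11.8 to 0 percentage points in the stop codon share and from -2.30 to 2.74 points in the GGAC share. The GGAC share difference was also below 0 with a window of 100 bases (-4.85 points) and for GGACT (-0.79), against 0.22. Relative to the median of all peaks of a library, an alternative chosen after seeing the data, the difference in median log2 fold enrichment was -0.19 against 0.06. The cause of these changes was not tested. Of 55 recomputed values 46 kept their direction. With a replicate block, libraries of the same number are paired. The differences of -4 peaks and -2 genes then had p = 0.5, the smallest that exact sign flips allow. The block alters only the p-value, so its directions, counted among the 46, could not change. The numbers are not stated to pair the libraries, whose deviations over the 2257 shared regions correlated at -0.02. The order of groups in Zc3h13 exon 12 and Virma exons 7 and 8 was the same under every alternative in which it was computed. These regions were singled out because their groups stood apart, which leaving out a library cannot undo. Most other alternatives left their values unaltered, so the unchanged order adds little. Peak summits are not in the lists, so the 2 summit alternatives were not run. With a stop codon window of 200 nt the difference in that share was -13.6 points against -5.88. The number of member regions with a peak in both control and no starved library rose from 0 to 1 with a minimum score of 100 and with equal numbers of peaks. Unknown depth limits every comparison of strength.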
